A study of Mus musculus with 32 samples.

Results

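The genes described here encode molecular chaperones, the proteins that help other proteins to fold and keep them from clumping. They were the protein-coding genes of the GENCODE M21 annotation whose symbols begin with Hspa, Hspb, Hspd, Hspe, Hsph or Hsp9, with Dnaja, Dnajb or Dnajc and a number, or with Cct and a digit from 2 to 8. This rule found 82 of the 55385 genes listed in the RNA libraries, of which 21897 were protein-coding. By family, there were 11 Hsp70 genes, 3 Hsp110 genes, 3 Hsp90 genes, 8 small Hsp genes, 2 genes of the mitochondrial Hsp60 and Hsp10, 4 Dnaja, 13 Dnajb and 28 Dnajc genes, 8 genes of the CCT family and 2 genes, Hspbp1 and Hspbap1, of proteins that bind Hsp70 or a small Hsp. Cct6a, a subunit gene of the same chaperonin, was annotated as a processed transcript in that release, so the rule left it out.

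All embryos were wild type, from B6D2F1/J females and B6D2F1/J males of 6 to 8 weeks, fertilized in vitro and cultured in KSOM medium. For CBP/p300 inhibition, embryos were cultured with 10 µM A-485, which blocks the acetyltransferase activity of CBP and p300, from 4 to 20 hours post in vitro fertilization (hpi), and RNA of A-485-treated and DMSO-treated embryos (the solvent control) was taken from zygotes and from 2-cell embryos at an early and a late time. For HDAC inhibition, embryos were cultured with 50 nM trichostatin A (TSA), which blocks histone deacetylases, from 8 to 28 hpi, and late 2-cell embryos were compared with DMSO-treated late 2-cell embryos of their own. Late 2-cell DMSO libraries were matched to a drug by the shared spelling of their titles, since the labels do not name the experiment. Each of the 8 groups had 2 total RNA libraries, and depth ran from 13206163 to 32585987 expected counts a library (median 22730517.5). Open chromatin was measured by ATAC-seq in A-485-treated and DMSO-treated embryos at the late 1-cell and the early 2-cell stage, with 1 merged list of peaks for each of the 4 conditions. No label says that the libraries of a group came from separate matings, so p-values measure the spread between these libraries, which may be technical.

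Hsp70 proteins bind exposed hydrophobic stretches of unfolded proteins in cycles driven by ATP. J-domain proteins, which the Dnaj genes encode, bring them clients and start the cycle, while Hsp110 and BAG-domain proteins release the nucleotide. Hsp90 acts later on kinases and receptors, CCT folds actin and tubulin inside a closed ring, and the small Hsp proteins hold unfolded clients. Heat shock factor HSF1 induces the stress forms, such as Hspa1a and Hspa1b, through heat shock elements made of inverted GAA units. Proteins of the Hsp70 family are also known among the earliest products of the mouse embryonic genome.

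The promoters of the main inducible genes are shown because the results turn on their RNA. For 67 of the 82 genes RefSeq gave a promoter window (build GRCm38.p6) of 300 bases, of which 250 lie before the start. Capitals mark a heat shock element pair, GAANNTTC or TTCNNGAA, read on both strands, and in Hsp90b1 the endoplasmic reticulum stress element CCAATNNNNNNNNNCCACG. Positions count the first transcribed base as 0. Of the Hsp90b1 window only the bases outside annotated exons are shown.
Hspa1a, chr17:34972157-34972406, minus strand: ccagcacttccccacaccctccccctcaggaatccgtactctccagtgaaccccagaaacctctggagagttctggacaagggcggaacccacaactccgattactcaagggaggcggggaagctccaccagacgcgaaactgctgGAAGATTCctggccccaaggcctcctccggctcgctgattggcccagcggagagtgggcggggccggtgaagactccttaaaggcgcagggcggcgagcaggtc
Hspa1b, chr17:34959239-34959488, minus strand: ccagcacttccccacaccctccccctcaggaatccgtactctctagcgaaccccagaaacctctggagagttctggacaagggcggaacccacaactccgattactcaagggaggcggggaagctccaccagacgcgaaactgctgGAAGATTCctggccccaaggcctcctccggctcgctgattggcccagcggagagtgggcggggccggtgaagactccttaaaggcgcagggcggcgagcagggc
Hspb1, chr5:135887669-135887918, plus strand: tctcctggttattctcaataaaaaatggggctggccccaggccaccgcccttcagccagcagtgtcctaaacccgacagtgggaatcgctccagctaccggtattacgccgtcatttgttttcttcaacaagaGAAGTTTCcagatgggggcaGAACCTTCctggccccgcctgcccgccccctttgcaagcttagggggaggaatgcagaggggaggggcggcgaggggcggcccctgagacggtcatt
Hsp90b1, chr10:86705510-86705694, minus strand: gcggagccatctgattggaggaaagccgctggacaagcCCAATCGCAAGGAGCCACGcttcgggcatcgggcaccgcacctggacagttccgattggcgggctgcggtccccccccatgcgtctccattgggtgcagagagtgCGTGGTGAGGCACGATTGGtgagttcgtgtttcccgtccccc
The promoters of Hspa1a and Hspa1b had the same base at 247 of the 250 positions (98.8%), and both held 1 pair at -104 to -97. Hspb1 had pairs at -117 to -110 and -97 to -90. Hsp90b1 had stress elements at -212 to -194 and -107 to -89, in opposite orientations.

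Shorter sites are shown for genes with a heat shock element of 3 or more units or a stress element, in capitals with up to 5 flanking bases on each side. The Hsph1 run lay after the start, at 36 to 48. The others lay before it, at -144 to -127 (Hspd1), -46 to -34 (Dnajb6), -65 to -47 (Hspa5) and -105 to -87 (Dnajc3). All but the Dnajc3 site overlapped an annotated exon.
Hsph1, chr5:149636287-149636305, minus strand: gcagaTTCTGGAAAGTTCt
Hspd1, chr1:55088054-55088081, minus strand: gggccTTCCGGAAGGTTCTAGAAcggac
Dnajb6, chr5:29735847-29735869, plus strand: tccgaGAATCTTCCGGAAcgcta
Hspa5, chr2:34772020-34772048, plus strand: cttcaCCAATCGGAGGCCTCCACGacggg
Dnajc3, chr14:118937822-118937850, plus strand: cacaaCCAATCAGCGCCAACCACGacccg
A pair was found in 19 of the 67 genes (28.4%), against 17.0% of 27025 genes and 15.1% of 32851 promoters. A run of 3 units, GAANNTTCNNGAA or TTCNNGAANNTTC, which holds overlapping pairs, was found in Dnajb6, Hspd1, Hspe1 and Hsph1, which is 4 of 67 (5.97%) against 0.662% of all genes and 0.603% of promoters. The stress element was found in Hspa5, Hsp90b1 and Dnajc3, which is 3 of 67 (4.48%) against 0.137% of all genes and 0.119% of promoters. Hspd1 and Hspe1 start next to each other in opposite directions, so 1 run serves both windows. These matches describe the letters in the windows and were not tested for binding.

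Chaperone genes were well represented in the RNA of these embryos. FPKM, fragments scaled to gene length and to depth, compare levels between genes. A mean FPKM of at least 1 was found for 59 to 68 of the 82 genes in a group. A mean of at least 10 was found for 32 to 46 and of at least 100 for 4 to 14. Of the 21897 protein-coding genes, 9624 to 12554 had a mean FPKM of at least 1 in a group. In every library, 29 genes had an FPKM of at least 10, while Hspa1l, Hspa12b, Hspb3, Hspb7, Hspb9, Dnajb7 and Dnajb8 were under 1 in all 16 libraries. Of the 8 groups, zygotes had the largest chaperone share, at 1.17% to 1.27% of all counts in the 4 zygote libraries. This share was 0.513% and 0.508% in early 2-cell DMSO libraries, 0.691% and 0.64% in late 2-cell DMSO libraries of the A-485 experiment, and 0.724% in both of the TSA experiment.

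In 6 comparisons of stages and drugs, 77 of the 82 genes had enough counts for a test at least once, and the other 5 (Dnajb8, Hspb2, Hspb3, Hspb7 and Hspb9) never did. At least 1 call was made for 61 genes, where 46.3% of all genes tested in any of these comparisons had a call. No call was made for 16, among them Hspd1, Hspa4l and Dnaja3. The 46.3% includes genes under 1 FPKM in each group compared, which could not be called, so it is not a share of expressed genes. Of 17 genes listed as tissue-restricted, 6 to 12 had enough counts for a test in each comparison.

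A few genes led in level. Hsp90aa1, the inducible cytosolic Hsp90, had a mean FPKM of 1449 in DMSO zygotes, 204.8 in early 2-cell and 326.8 in late 2-cell embryos. Dnajb6, a J-domain protein that keeps aggregation-prone proteins soluble, followed in zygotes with a mean FPKM of 539.3, and Dnaja1, a cytosolic J-domain partner of Hsp70, had 473.5. The early 2-cell order differed, with Dnajc8 at a mean FPKM of 330.1, Dnajb6 at 242.6 and Hsp90aa1 at 204.8. The inducible Hsp70 genes were far lower throughout, and Hspa1a reached a mean FPKM of 0.5 in DMSO zygotes, 9.8 in early 2-cell and 11.8 in late 2-cell embryos.

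The first comparison asked how chaperone RNA changes without a drug. From zygote to early 2-cell, the inducible Hsp70 genes rose while several of the RNAs abundant in zygotes dropped. Others stayed near their level, such as Dnaja2, with a mean FPKM of 163.1 in zygotes and 151.7 in early 2-cell embryos, and Hspa9, with 133.0 and 121.1. Of 73 chaperone genes tested, 7 rose and 26 fell, where 11.2% of all genes tested rose and 14.9% fell. A call needed an adjusted p under 0.05 in edgeR's quasi-likelihood test, at least a 2-fold change, and 1 FPKM or more on average in 1 of the groups. The median log2 fold change was -0.60 for chaperone genes and 0.08 for all genes tested. Genes under 1 FPKM in each group compared could not be called but count among all genes tested, here and below. Among genes at 1 FPKM or more in a group, 7 of 62 chaperone genes rose and 26 fell. Of 13353 such genes in all, 2257 rose and 3002 fell. The medians were -0.86 for these chaperone genes and -0.12 for all such genes. Scaling to the mitochondrial mRNAs instead of TMM shifted the median over expressed genes by -1.33 on the log2 scale and gave 6 up and 52 down, where 6.32% and 40.8% of all genes were called.

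Hspa1a and Hspa1b are near-identical inducible Hsp70 genes on chromosome 17, at 34969190 to 34972156 and 34956436 to 34959238 of GRCm38, so their reads could be split wrongly between them. Hspa1a had 1.44 and 1.46 CPM (counts scaled to the depth of the library) in DMSO zygotes and 25.5 and 31.2 CPM in DMSO early 2-cell embryos. Hspa1b had 5.61 and 5.53 CPM in zygotes and 43.9 and 43.3 CPM in early 2-cell embryos. All early 2-cell libraries lay above all zygote libraries for both genes. Hspa1a rose 19.4-fold (log2 fold change 4.28 ± 0.24 SE, adjusted p = 7.98e-09, edgeR) and Hspa1b 7.71-fold (2.95 ± 0.17, adjusted p = 1.07e-08). With the counts of both summed, the log2 fold change was 3.34 ± 0.14.

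Hspa2, an Hsp70 known for its role in male germ cells, had 5.18 and 7.96 CPM in zygotes and 100.4 and 82.4 CPM in early 2-cell embryos, which is 13.8-fold higher (log2 fold change 3.78 ± 0.19, adjusted p = 3.78e-09, edgeR). Hspb1, the small Hsp27 that binds actin filaments, went from 1.07 and 0.426 CPM to 7.67 and 8.41 CPM, with a log2 fold change of 3.37 ± 0.43. Dnajb9, a J-domain protein of the endoplasmic reticulum that is induced by unfolded proteins, went from 12 and 10 CPM to 108.5 and 82.9 CPM, with a log2 fold change of 3.10 ± 0.16. In each of these genes the early 2-cell libraries were all higher than the zygote libraries. The other genes that rose were Dnajb14 and Dnajc12, which were named after their values were seen, and Dnajc12 had at most 4 counts in a zygote library.

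Hsp90aa1 showed the opposite course, with 3579 and 4141 CPM in zygotes and 559.8 and 622.2 CPM in early 2-cell embryos (log2 fold change -2.73 ± 0.08, adjusted p = 3.13e-11, edgeR). Dnajc11, a J-domain protein of the mitochondrial membrane, fell by 2.45 ± 0.12 on the log2 scale, from 339.3 and 360.1 CPM to 55.5 and 73.8 CPM. Hspa4, an Hsp110 that exchanges the nucleotide of Hsp70, fell by 2.40 ± 0.14, and Dnaja1 fell by 2.25 ± 0.08. These RNAs were abundant in zygotes, and none of their early 2-cell libraries reached a zygote library. Of the 10 genes listed as HSF1-type inducible, 3 rose and 4 fell, so the list held both courses. The 3 that rose were Hspa1a, Hspa1b and Hspb1, and the 4 that fell were Hsp90aa1, Dnaja1, Hsph1 and Dnajb1.

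**Figure D1:**
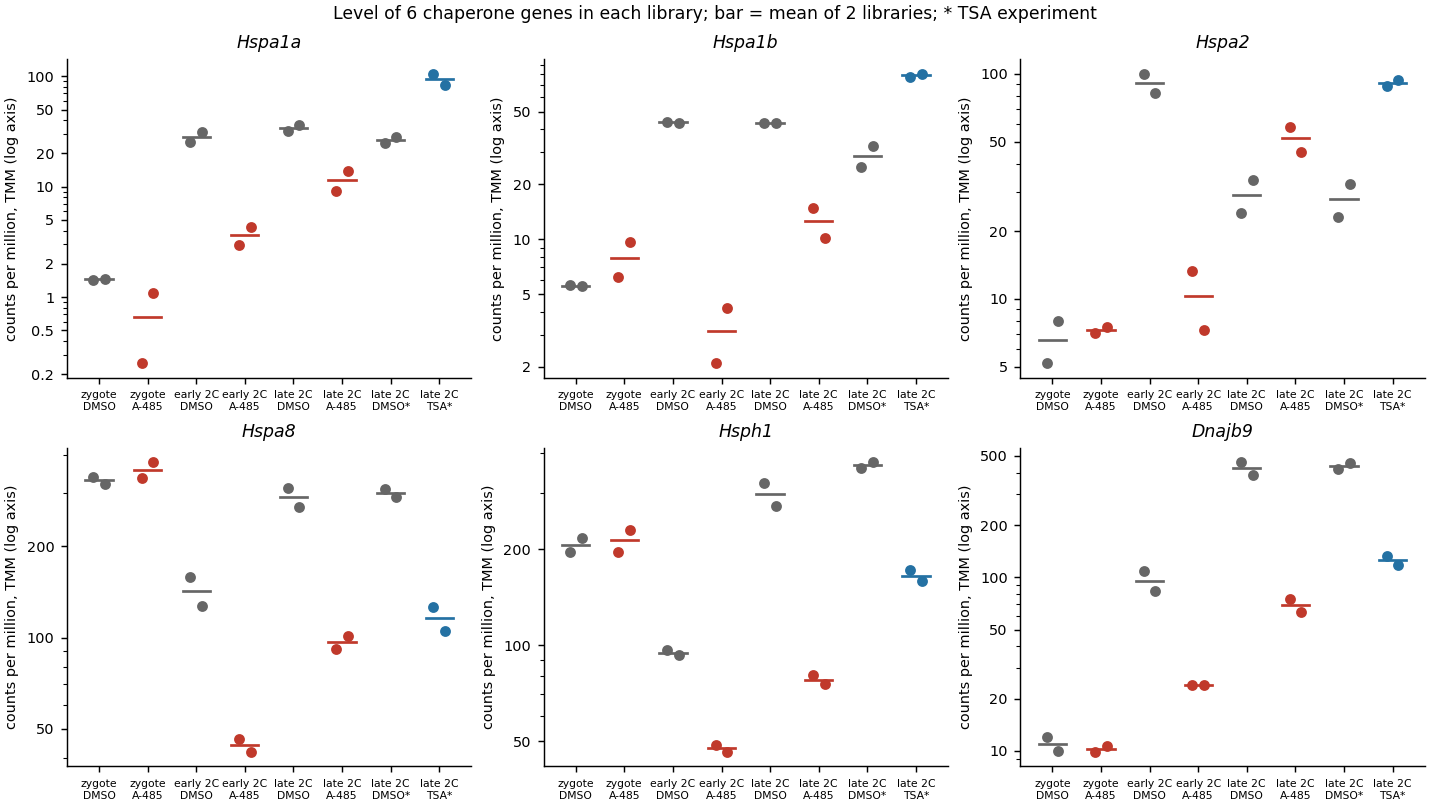
CPM on a log axis of Hspa1a, Hspa1b, Hspa2, Hspa8, Hsph1 and Dnajb9 in each of the 16 libraries, 2 points for each stage and treatment. Hspa1a stood at 25.5 and 31.2 CPM in early 2-cell DMSO libraries and at 2.95 and 4.3 CPM with A-485, and Hspa8 started high in zygotes, at 339.9 and 321.8 CPM.

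From early to late 2-cell, the second transition, more chaperone genes rose than fell. Of 75 chaperone genes tested, 21 rose and 5 fell, where 15.9% of all genes tested rose and 8.92% fell. The median log2 fold change was 0.32 for chaperone genes and -0.03 for all genes tested. Among genes at 1 FPKM or more in a group, 21 of 64 chaperone genes rose and 5 fell. Of 13727 such genes in all, 3238 rose and 1813 fell. The medians were 0.39 for these chaperone genes and 0.03 for all such genes. This comparison and the one before share the early 2-cell DMSO libraries, so a gene with a low value there tends to fall in the first and rise in the second. Early 2-cell titles are spelled like those of the TSA experiment, while zygote titles are spelled like those of the late 2-cell libraries used here. Stage and any batch behind this spelling cannot be told apart, here or where A-485 effects are compared between stages. With late 2-cell DMSO libraries of the TSA experiment instead, the 20 named genes kept their calls. Of 21141 genes tested in that fit, 4077 rose and 2167 fell.

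Genes of the endoplasmic reticulum and of the CCT ring were among those that rose. Dnajb11, a J-domain partner of the reticulum's Hsp70, had 11.3 and 11.1 CPM in early and 73.8 and 70.7 CPM in late 2-cell DMSO libraries (log2 fold change 2.69 ± 0.17, adjusted p = 1.98e-07, edgeR). Dnajb9 went on from 108.5 and 82.9 CPM to 460.3 and 389.3 CPM (log2 fold change 2.15 ± 0.15). Hspa5, the Hsp70 of the reticulum also called BiP, went from 76.7 and 106.2 CPM to 263.3 and 268.4 CPM (log2 fold change 1.54 ± 0.14). These late 2-cell libraries all lay above the early ones. Of the 8 genes listed for the endoplasmic reticulum, 5 rose and 0 fell, the others being Dnajc1 and Dnajc10. Of the 7 genes listed for the CCT ring, Cct6a included, 5 rose and 0 fell, with log2 fold changes of 2.04 ± 0.15 for Cct3, 1.64 ± 0.15 for Cct2, and 1.25 for both Cct4 and Cct8.

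Hspbp1, a nucleotide exchange factor of Hsp70, had 0.342 and 0.994 CPM in early and 9.56 and 10.6 CPM in late 2-cell embryos (log2 fold change 3.90 ± 0.49). Dnajb12, a J-domain protein of the reticulum membrane, went from 10.3 and 13.4 CPM to 80.5 and 77.5 CPM (log2 fold change 2.74 ± 0.18). Hsph1, an inducible Hsp110, rose from 96.3 and 93.0 CPM to 322.4 and 272.8 CPM (log2 fold change 1.65 ± 0.12). The early 2-cell Hsp70 genes did not keep rising. Hspa1a had 31.8 and 36.2 CPM and Hspa1b 43.5 and 43.3 CPM in late 2-cell embryos, with log2 fold changes of 0.26 ± 0.18 (adjusted p = 0.298, edgeR) and -0.01 ± 0.15 (adjusted p = 0.984).

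Hspa2 fell again to 24.1 and 33.9 CPM (log2 fold change -1.66 ± 0.19, adjusted p = 2.1e-05, edgeR). Dnajb4, a J-domain partner of Hsp70, fell from 354.7 and 342.9 CPM to 73.1 and 79.6 CPM (log2 fold change -2.19 ± 0.11), and Hspe1, the mitochondrial Hsp10, from 24.5 and 24.3 CPM to 11.8 and 6.84 CPM (log2 fold change -1.38 ± 0.27). The late 2-cell libraries of these genes were the lower ones. Among 65 chaperone genes that averaged 1 FPKM or more in a DMSO stage, 32 (49.2%) were highest in zygotes, 9 (13.9%) in early and 24 (36.9%) in late 2-cell embryos, beside 41.4%, 21.1% and 37.5% of 11882 protein-coding genes.

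**Figure D2:**
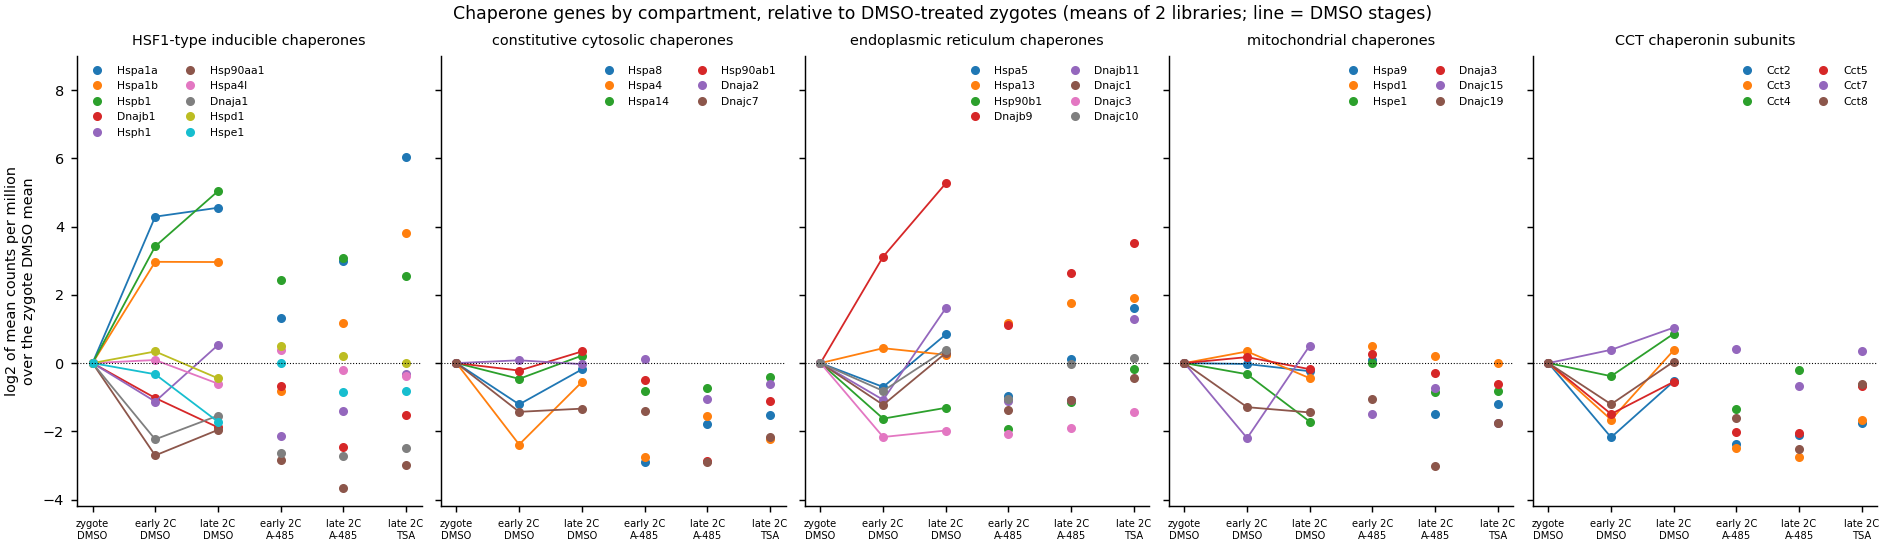
Log2 of the mean CPM of each gene over its mean in DMSO-treated zygotes, in 5 panels by role, with 1 point for each group of 2 libraries and lines that join the DMSO stages. Hspa1a lies above 0 at early 2-cell, at 25.5 and 31.2 CPM against 1.44 and 1.46 CPM in zygotes, and Hsp90aa1 lies below 0 in each later group.

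CBP/p300 inhibition was examined first in zygotes. No chaperone gene passed the test there. Of 68 chaperone genes tested, 0 rose and 0 fell, where 0.00548% of all genes tested rose and 0.0657% fell. DESeq2 also called 0, and 2 genes had an unadjusted p under 0.05, which were Dnajc16 with a log2 fold change of -0.55 and Hspa5 with 0.17. The median log2 fold change was 0.05 for chaperone genes. Hspa1b had 6.24 and 9.60 CPM with A-485 and 5.61 and 5.53 CPM with DMSO, and Hspa1a had 0.251 and 1.08 CPM against 1.44 and 1.46 CPM. Hsp90aa1 had 3848 and 3867 CPM with A-485 against 3579 and 4141 CPM.

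At early 2-cell, the inducible Hsp70 genes were lower with A-485. Of 72 chaperone genes tested, 0 rose and 9 fell, where 0.402% of all genes tested rose and 7.9% fell. Among genes at 1 FPKM or more in a group, 9 of 60 chaperone genes fell, beside 1649 of 12977 genes in all. Hspa1b was the largest change, with 43.9 and 43.3 CPM in DMSO libraries and 2.09 and 4.19 CPM in A-485 libraries. Hspa1a had 25.5 and 31.2 CPM with DMSO and 2.95 and 4.3 CPM with A-485, and Hspa2 had 100.4 and 82.4 CPM with DMSO and 13.3 and 7.27 CPM with A-485. For all 3 genes both A-485 libraries were below both DMSO libraries. Hspa1b was 14.4-fold lower (log2 fold change -3.84 ± 0.27, adjusted p = 7.65e-07, edgeR), Hspa2 9.33-fold (-3.22 ± 0.23, adjusted p = 8.87e-07) and Hspa1a 8.1-fold (-3.02 ± 0.24, adjusted p = 2.99e-06). The summed counts of Hspa1a and Hspa1b gave -3.46 ± 0.21.

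Dnajb9 had 108.5 and 82.9 CPM with DMSO and 23.9 CPM in both A-485 libraries (log2 fold change -2.06 ± 0.14, adjusted p = 8.34e-07, edgeR). Hspa8, the constitutive Hsp70 that works in every cell, had 158.7 and 127.0 CPM with DMSO and 46.1 and 41.9 CPM with A-485 (-1.76 ± 0.12, adjusted p = 8.64e-07). Hsph1 had 96.3 and 93.0 CPM and 48.7 and 46.2 CPM (-1.06 ± 0.11, adjusted p = 2.06e-05). The DMSO and A-485 libraries of these genes did not overlap. The zygote values of Hspa8, 339.9 and 321.8 CPM, and of Hsph1, 196.4 and 217.2 CPM, were above those of either early 2-cell group.

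The remaining calls were small or rested on few counts. Cct4, a subunit of the CCT ring, had 11.3 and 15.6 CPM with DMSO and 4.95 and 8.95 CPM with A-485 (log2 fold change -1.01 ± 0.30), just inside the fold cutoff, and was not called with DESeq2, with scaling to size factors or to total counts, in a fit of all 16 libraries, or without early 2-cell DMSO replicate 2 (adjusted p = 0.183) or A-485 replicate 1 (0.224). Dnajb14 and Dnajc12, named after their values were seen, had log2 fold changes of -1.39 ± 0.24 and -2.03 ± 0.59. Hspb1 just missed the test, with 7.67 and 8.41 CPM against 4.95 and 3.18 CPM (-1.05 ± 0.32, adjusted p = 0.0524, edgeR).

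Chaperone genes with abundant RNA in zygotes mostly had small fold changes at this stage. Hsp90aa1 had 559.8 and 622.2 CPM with DMSO and 529.1 and 544.1 CPM with A-485 (log2 fold change -0.20 ± 0.07, adjusted p = 0.0939, edgeR). Hspd1, the mitochondrial Hsp60, and Hspe1 had log2 fold changes of 0.10 ± 0.10 and 0.27 ± 0.15, and Hspa5 had -0.31 ± 0.14. None of the 6 genes listed for mitochondria was called. The median over chaperone genes was -0.17 and over all genes tested 0.00. Over genes at 1 FPKM or more in a group, the medians were -0.07 for chaperone genes and -0.01 for all.

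The difference between the early 2-cell and the zygote effect of A-485 was tested as an interaction. Of 73 chaperone genes tested, the effect was higher at early 2-cell in 0 and lower in 6, where 0.313% of all genes were higher and 3.69% lower. The difference in log2 fold change was -4.30 ± 0.37 for Hspa1b (adjusted p = 1.26e-07, edgeR), -3.32 ± 0.32 for Hspa2, -1.91 ± 0.22 for Dnajb9, -1.82 ± 0.14 for Hspa8 and -1.05 ± 0.13 for Hsph1. For Hspa1a it was -1.83 ± 0.56 (adjusted p = 0.0638), with 8 to 45 counts in the zygote libraries.

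Genes that work with the chaperones gave context. Bag3, a cochaperone that is itself induced by HSF1, had 0.572 and 0.0672 CPM in DMSO zygotes, 45.6 and 31.5 CPM in early 2-cell DMSO libraries and 3.15 and 2.23 CPM with A-485 (log2 fold change -3.91 ± 0.26). Bag1 and Bag5, further BAG-domain cochaperones, had -1.59 ± 0.22 and -1.56 ± 0.22, and of 20 cochaperone genes listed, 0 rose and 4 fell. Of 10 folding partners in the reticulum, 0 rose and 4 fell, led by Pdia3 (-1.28 ± 0.12), Manf (-1.10 ± 0.16) and Hyou1 (-1.06 ± 0.16). Of 5 genes of heat shock factors and their regulators, 0 were called, and Hsf1 had 126.1 and 120.8 CPM with DMSO and 138.5 and 141.5 CPM with A-485. Of 10 genes of TCP1 and prefoldin and 10 mitochondrial partners, 0 were called.

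Other RNA moved in these libraries too. The summed FPKM of 6 marker genes of 2-cell embryos was 357.9 to 419.9 in early 2-cell DMSO libraries and 10.2 to 12.8 with A-485. The 10 oocyte and maternal markers were all at 1 FPKM or more in every group, and their sum was 3197 to 3343 FPKM with DMSO and 3554 to 3711 FPKM with A-485. The part of these shifts in the chaperone values was not tested. In these bulk libraries of whole embryos, fewer embryos with an RNA and less of it in each embryo cannot be told apart.

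At late 2-cell, in embryos treated with A-485 until 20 hpi, more chaperone genes were called. Of 75 chaperone genes tested, 9 rose and 29 fell, where 10.5% of all genes tested rose and 16.8% fell. The median log2 fold change was -0.81 for chaperone genes and 0.28 for all genes tested. Among genes at 1 FPKM or more in a group, 9 of 69 chaperone genes rose and 29 fell. Of 16062 such genes in all, 2406 rose and 3824 fell. The medians were -0.86 for these chaperone genes and 0.02 for all such genes. Chaperone genes took 0.691% and 0.64% of counts with DMSO and 0.343% and 0.356% with A-485. Mitochondrially encoded mRNA took 2.45% and 2.35% with DMSO and 5.43% and 5.35% with A-485. Scaling to these mitochondrial genes shifted the median over expressed genes by -0.98 on the log2 scale and gave 3 up and 45 down, where 5.16% and 30.1% of all genes were called.

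Hsp90ab1, the constitutive cytosolic Hsp90, had 556.1 and 535.3 CPM with DMSO and 62.8 and 54.9 CPM with A-485, which is 9.5-fold lower (log2 fold change -3.25 ± 0.12, adjusted p = 7.31e-09, edgeR). Hsp90aa1 had 1100 and 883.5 CPM against 256.2 and 349.1 CPM (-1.75 ± 0.15, adjusted p = 1.53e-06). Hspa8 had 311.4 and 270.0 CPM against 91.5 and 101.2 CPM (-1.63 ± 0.13). In all 3 genes the DMSO libraries were the higher ones. Of the 6 genes listed as constitutive and cytosolic, 5 fell, and the other, Hspa14, had -0.98 ± 0.20, just under the fold cutoff. Hspa4 and Dnaja2 lay just past it, with -1.02 ± 0.14 and -1.05 ± 0.12.

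The genes of the CCT ring fell together, with 0 of 7 listed genes rising and 7 falling, Cct6a included. Cct3 had 150.8 and 138.5 CPM with DMSO and 17.2 and 15.6 CPM with A-485 (log2 fold change -3.17 ± 0.16, adjusted p = 3.37e-08, edgeR). Cct8 had 96.1 and 102.1 CPM against 15.8 and 18.0 CPM (-2.59 ± 0.17), and Cct7, Cct2, Cct5 and Cct4 had -1.75, -1.60, -1.55 and -1.10. No A-485 library of these genes reached a DMSO library. Tcp1, the CCT subunit whose symbol lies outside the rule, had 240.3 and 234.5 CPM with DMSO and 44.6 and 34.5 CPM with A-485 (-2.62 ± 0.15).

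Of the 8 genes listed for the endoplasmic reticulum, 1 rose and 3 fell. Dnajb9 had 460.3 and 389.3 CPM with DMSO and 75.3 and 63.2 CPM with A-485 (log2 fold change -2.65 ± 0.14, adjusted p = 4.3e-08, edgeR). Dnajb11 had 73.8 and 70.7 CPM against 11.9 and 10.5 CPM (-2.72 ± 0.20). Hspa13, a small Hsp70-like protein of this compartment, rose from 6.05 and 7.09 CPM to 20.5 and 16.8 CPM (1.47 ± 0.30, adjusted p = 0.00202), though with mitochondrial scaling its log2 fold change was 0.49 (adjusted p = 0.256). Hspa5 had 263.3 and 268.4 CPM against 171.3 and 150.2 CPM (-0.76 ± 0.12), under the fold cutoff. Hsp90b1, the Hsp90 of the reticulum, had 201.0 and 129.7 CPM against 185.4 and 183.9 CPM, a log2 fold change of 0.12 ± 0.18 within the spread of its DMSO libraries.

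Of the 6 mitochondrial chaperones listed, 0 rose and 2 fell. Hspa9, the mitochondrial Hsp70, fell from 344.8 and 275.7 CPM to 127.6 and 130.9 CPM (log2 fold change -1.30 ± 0.13, adjusted p = 9.05e-06, edgeR). Dnajc15, a J-domain protein of the import motor, fell by 1.27 ± 0.37. Hspd1 had 87.3 and 70.5 CPM with DMSO and 132.4 and 117.6 CPM with A-485 (0.63 ± 0.15, adjusted p = 0.00686), under the fold cutoff. Hspe1 had 11.8 and 6.84 CPM against 17.3 and 16.6 CPM (0.83 ± 0.32, adjusted p = 0.0624).

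The inducible Hsp70 genes were lowered less at late than at early 2-cell. Hspa1b had 43.5 and 43.3 CPM with DMSO and 14.9 and 10.2 CPM with A-485 (log2 fold change -1.83 ± 0.24), and Hspa1a had 31.8 and 36.2 CPM against 9.17 and 14.0 CPM (-1.58 ± 0.26). Hspa2 had 24.1 and 33.9 CPM against 58.4 and 45.2 CPM, higher with A-485 in both libraries but under the fold cutoff (0.80, adjusted p = 0.0135, edgeR). Hspb1 had 22.7 and 26.6 CPM against 10.3 and 2.48 CPM (-1.98 ± 0.49), and Hsph1 had 322.4 and 272.8 CPM against 80.4 and 75.3 CPM (-1.97 ± 0.13). Of the 10 HSF1-type genes, 0 rose and 6 fell.

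The largest falls outside these roles were those of Hspbp1, with 9.56 and 10.6 CPM against 0.49 and 0.253 CPM (log2 fold change -4.78 ± 0.56), of Dnajc17, a nuclear J-domain protein, with 5.87 and 6.66 CPM against 0.42 and 0.696 CPM (-3.50 ± 0.60), and of Dnajb12, with 80.5 and 77.5 CPM against 7.35 and 8.29 CPM (-3.37 ± 0.20). Hspbp1 had only 7 and 4 counts in the A-485 libraries. Among the genes that rose, Hspb8, a small Hsp that acts with Bag3, had 0.37 and 0 CPM with DMSO and 11 and 5.38 CPM with A-485 (5.33 ± 0.90), from 8 and 0 counts in the DMSO libraries. Dnajc28 had 2.91 and 3.6 CPM against 15.8 and 23.4 CPM (2.55 ± 0.34). The log2 fold change of Hspb11 was 2.47 ± 0.83, and the call was lost without any 1 of 3 of its 4 libraries and with mitochondrial scaling (1.53, adjusted p = 0.165).

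Many but not all of the partner genes fell too, where 10.5% of all genes tested rose and 16.8% fell. Of 20 cochaperone genes, 0 rose and 11 fell, led by Fkbp4, an Hsp90 partner, with 120.3 and 141.8 CPM against 6.02 and 6.13 CPM (log2 fold change -4.46 ± 0.19), Bag5 (-4.16 ± 0.23) and Bag1 (-3.66 ± 0.17). Of 10 reticulum partners, 0 rose and 8 fell, led by Hyou1 (-2.65), Manf (-2.16) and Calr (-1.97). Of 10 TCP1 and prefoldin genes, 0 rose and 4 fell, and of 10 mitochondrial partners, 0 rose and 5 fell. Hsf1 had a log2 fold change of -0.17 ± 0.15. The 2-cell markers summed to 224.1 to 239.2 FPKM with DMSO and 57.9 to 60.8 FPKM with A-485, and 6 fibroblast markers to 0.48 to 0.58 FPKM and 5.73 to 9.79 FPKM, with Col1a2, Dcn and Lum at 0 with A-485. Their part in the chaperone values was not tested.

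The change of the A-485 effect from early to late 2-cell was tested as an interaction over 8 libraries. Of 76 chaperone genes tested, 7 effects were higher and 17 lower at late 2-cell, where 7.6% of all genes were higher and 7.38% lower. Scaling to mitochondrial genes gave 4 higher and 39 lower, beside 3.77% and 21.4% of all genes. The effect was less negative at late 2-cell by 2.1 ± 0.36 on the log2 scale for Hspa1b (adjusted p = 8.57e-05, edgeR) and by 1.52 ± 0.37 for Hspa1a, which with mitochondrial scaling was 0.46 (adjusted p = 0.46). For Hspa2 the difference was 4.10 ± 0.32, since its effect was -3.22 at early 2-cell and 0.80 at late 2-cell. Lower effects at late 2-cell were those of Dnajc17 (-3.48 ± 0.73), Dnajb12 (-3.26 ± 0.30), Hsp90ab1 (-2.82 ± 0.15), Dnajb11 (-2.55 ± 0.29), Cct3 (-2.19 ± 0.23) and Cct8 (-2.03 ± 0.23). For Hspa8 the difference was 0.21 ± 0.18 and for Dnajb9 -0.51 ± 0.19, and neither was called.

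**Figure D3:**
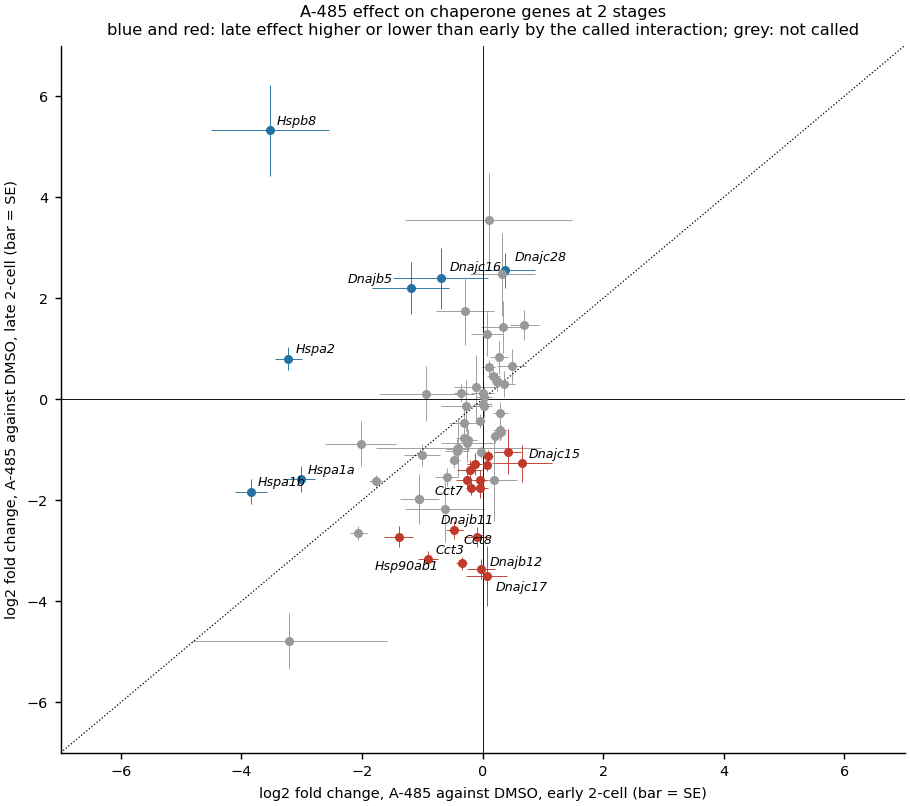
Log2 fold change of A-485 against DMSO at early 2-cell (horizontal axis) and late 2-cell (vertical axis) for 69 chaperone genes, 1 point for each gene, with names for differences of at least 1.5 that were called. Hspa2 lay at -3.22 and 0.80, and Hsp90ab1 at -0.35 and -3.25.

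HDAC inhibition was examined at late 2-cell. TSA raised the inducible Hsp70 genes and lowered many of the constitutive ones. Of 77 chaperone genes tested, 11 rose and 23 fell, where 13.8% of all genes tested rose and 13.9% fell. The median log2 fold change was -0.45 for chaperone genes and 0.13 for all genes tested. Among genes at 1 FPKM or more in a group, 11 of 69 chaperone genes rose and 23 fell. Of 16048 such genes in all, 3237 rose and 3247 fell. The medians were -0.49 for these chaperone genes and -0.03 for all such genes. Scaling to total counts shifted the median over expressed genes by 0.36 on the log2 scale and gave 16 up and 15 down, where 17.5% and 10.2% of all genes were called.

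Hspa1a had 24.7 and 28.1 CPM with DMSO and 106.0 and 82.9 CPM with TSA (log2 fold change 1.71 ± 0.13, adjusted p = 2.01e-06, edgeR). Hspa1b had 24.9 and 32.3 CPM against 76.9 and 80.8 CPM (1.33 ± 0.13, adjusted p = 1.26e-05). Hspa2, named here after its values were seen, had 23.2 and 32.3 CPM against 88.3 and 93.8 CPM (1.59 ± 0.14). The TSA libraries were the higher ones in each. Of the 10 HSF1-type genes, the 2 that rose were Hspa1a and Hspa1b, and the 4 that fell were Hspb1 (-2.55 ± 0.22), Hsp90aa1 (-1.33 ± 0.05), Hsph1 (-1.28 ± 0.07) and Dnaja1 (-1.13 ± 0.10).

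Of the 6 constitutive cytosolic genes, 0 rose and 5 fell. Hspa4 had 173.0 and 152.3 CPM with DMSO and 36.7 and 35.0 CPM with TSA (log2 fold change -2.31 ± 0.10, adjusted p = 3.4e-08, edgeR), Hsp90ab1 had 736.6 and 804.6 CPM against 201.2 and 200.1 CPM (-2.07 ± 0.06), and Hspa8 had 308.4 and 290.8 CPM against 126.6 and 104.7 CPM (-1.50 ± 0.10). With total counts as the scale, the fold changes of Dnaja1, Dnajc7, Hsp90aa1, Hspa14, Hspa9 and Hsph1 lay under the cutoff of 2. Of the 7 CCT genes, 0 rose and 4 fell, with Cct3 at 159.4 and 162.9 CPM against 35.7 and 34.2 CPM (-2.34 ± 0.09), Cct4 at -1.64 ± 0.15 and Cct2 at -1.57 ± 0.11. Cct8 had 90.8 and 88.3 CPM against 67.5 and 57.4 CPM (-0.65 ± 0.10).

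In the endoplasmic reticulum, Hsp90b1 rose from 160.7 and 149.2 CPM to 360.9 and 362.8 CPM (log2 fold change 1.09 ± 0.07, adjusted p = 7.26e-07, edgeR), and with mitochondrial scaling its log2 fold change of 0.92 was under the cutoff. Hspa13 rose from 4.53 and 5.95 CPM to 19.7 and 22.3 CPM (1.88 ± 0.22). Dnajb9 fell from 420.8 and 452.9 CPM to 133.4 and 117.6 CPM (-1.93 ± 0.08). Hspa5 had 384.9 and 402.1 CPM with DMSO and 462.5 and 452.6 CPM with TSA (0.09 ± 0.06, adjusted p = 0.269).

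Among called genes at a mean FPKM of 5 or more in a group, the largest rises were those of Hspb8 and Dnajb5, which were near 0 in control embryos. Hspb8 had 0.197 and 0.388 CPM with DMSO and 10.0 and 9.78 CPM with TSA (log2 fold change 4.94 ± 0.40), from 5 and 9 counts in the DMSO libraries. Dnajb5, a J-domain protein that acts with class II HDACs in heart muscle, had 0.946 and 1.72 CPM against 31.7 and 41.3 CPM (4.65 ± 0.28, adjusted p = 2.95e-07, edgeR), and Dnajb2 had 2.21 and 2.84 CPM against 8.51 and 9.97 CPM (1.74 ± 0.29). Both TSA libraries were higher in each. Dnajc12, a J-domain partner of aromatic amino acid hydroxylases, fell from 6.78 and 7.11 CPM to 0.914 and 0.649 CPM (-3.28 ± 0.36), and Dnajb12 from 74.6 and 68.7 CPM to 11.8 and 14.2 CPM (-2.59 ± 0.14).

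Of the partner genes, 0 of 20 cochaperones rose and 8 fell, among them Bag5 (-3.15) and Ppid (-2.15). Bag3 had 46.1 and 34.3 CPM with DMSO and 86.5 and 78.9 CPM with TSA (0.91 ± 0.14), under the fold cutoff. Of 10 TCP1 and prefoldin genes, 1 rose (Pdcl3, 1.56) and 3 fell, with Pfdn6 at -3.42 and Tcp1 at -2.44. In the reticulum list 0 of 10 rose and 1 fell, Pdia3 (-1.91), and of 10 mitochondrial partners 0 rose and 5 fell. The 2-cell markers summed to 142.6 to 167.9 FPKM with DMSO and 345.5 to 404.4 FPKM with TSA. Mitochondrially encoded mRNA took 2.71% and 2.39% of counts with DMSO and 3.66% and 3.72% with TSA. The oocyte and maternal markers summed to 1676 to 1706 FPKM with DMSO and 1179 to 1197 FPKM with TSA. Of these markers, Dppa3 (mean FPKM 1096 and 416.3) and Zp3 (12.85 and 7.775) were lower with TSA. The others were higher, such as Oosp1 (317.1 and 399.3) and Bmp15 (128.3 and 196.1). Erythroid markers summed to 0.78 to 1.36 FPKM and 44.6 to 46.8 FPKM, with Hbb-bs and Hbb-bt at 0 with TSA, and fibroblast markers to 1.1 to 2.53 FPKM and 9.49 to 12 FPKM. Their part in the chaperone values was not tested.

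The DMSO-treated late 2-cell libraries of the TSA and A-485 experiments were also compared. Of 77 chaperone genes tested, 0 were higher and 0 lower in the TSA experiment, where 1.19% of all genes were called higher and 0.136% lower. DESeq2 also called 0, and 12 genes had an unadjusted p under 0.05. Hspa5 was higher by 0.55 ± 0.09 on the log2 scale (adjusted p = 0.00521, edgeR) and Hsp90ab1 by 0.48 ± 0.09 (adjusted p = 0.00996), both under the fold cutoff.

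The TSA and A-485 effects at late 2-cell were then compared as an interaction, each against its own DMSO libraries. The drugs were given at different doses and times (50 nM from 8 to 28 hpi and 10 µM from 4 to 20 hpi), so the values stand side by side. Of 78 chaperone genes tested, the TSA effect was higher in 15 and lower in 4, where 10.8% of all genes were higher and 2.7% lower. Scaling to mitochondrial genes gave 34 higher and 0 lower, beside 19.7% and 1.23% of all genes. Leaving out DMSO replicate 1 of the TSA experiment or TSA replicate 2 left 2 and 1 lower. The log2 fold changes of Hspa1a were 1.71 with TSA and -1.58 with A-485, a difference of 3.40 ± 0.28 (adjusted p = 8.04e-08, edgeR). For Hspa1b they were 1.33 and -1.83, a difference of 3.27 ± 0.27.

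Genes that were lower with both drugs differed in size. The difference was 2.28 ± 0.20 for Dnajb11, which had -0.55 with TSA and -2.72 with A-485. It was 2.05 ± 0.19 for Cct8 and 1.29 ± 0.13 for Hsp90ab1, both lower with A-485, and -1.19 ± 0.17 for Hspa4, which was lower with TSA. For Hspa8 the log2 fold changes were -1.50 with TSA and -1.63 with A-485, a difference of 0.23 ± 0.16 (adjusted p = 0.39, edgeR) that the test did not separate from 0. Hspb8 rose with both, by 4.94 and 5.33.

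**Figure D4:**
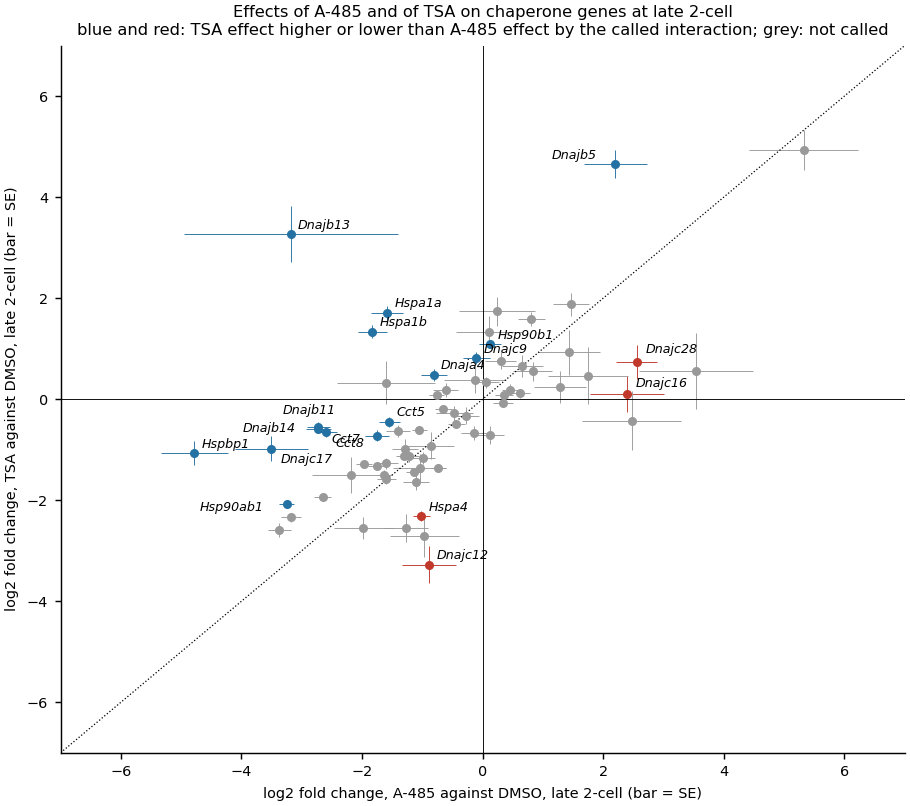
Log2 fold change at late 2-cell of A-485 against its DMSO libraries (horizontal axis) and of TSA against its own (vertical axis) for 70 chaperone genes, 1 point for each gene, with names where the difference between the drugs was called. Hspa1a lay at -1.58 and 1.71, and Hsp90ab1 at -3.25 and -2.07.

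Open chromatin was compared at the promoters, counting a peak within 1 kb of an annotated transcript start. A promoter peak was found for 38 of 82 chaperone genes (46.3%, 95% Wilson interval 36.0% to 57.1%) at late 1-cell with DMSO, 39 (47.6%) at late 1-cell with A-485, 53 (64.6%, 53.8% to 74.1%) at early 2-cell with DMSO and 58 (70.7%, 60.1% to 79.5%) at early 2-cell with A-485. Of 21884 protein-coding genes the shares were 26.2%, 24.7%, 31.8% and 41.0%. More of the chaperone genes were expressed. In DMSO zygotes 60 of the 82 had a mean FPKM of at least 1, beside 9966 of the 21897 protein-coding genes in the RNA libraries. The part of expression in the promoter shares was not tested. The lists were of unequal length, with 10214, 7094, 27693 and 13712 peaks, and each was 1 merged list, so no test was made and the intervals cover counting error alone. A peak in all 4 lists was found for 28 genes (34.1%, all genes 15.9%) and in none for 18 (22.0%, all genes 50.7%).

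Of the 53 promoters with a peak in early 2-cell DMSO embryos, 47 (88.7%) also had one with A-485, beside 81.8% of all such promoters. The fold enrichment of the peak, as the authors' peak caller gave it, was 8.44, 8.73, 7.51 and 8.27 for Hspa8 in the order given above. For Hspa2 it was 6.81, 5.79, 9.82 and 7.35, and for Dnajb9 it was 9.35, 8.54, 8.5 and 12. These genes thus kept a promoter peak in all 4 lists, while their early 2-cell RNA fell with A-485. Hspa1b had peaks of 5.36, 5.34 and 10.8 and no peak in the early 2-cell A-485 list. Hspa1a, which shares its peak with the neighbouring Hspa1l, had none at late 1-cell and 12.6 with DMSO and 6.12 with A-485 at early 2-cell. The promoters of Hspa1a and Hspa1b were 98.8% alike, so reads could be placed on the wrong one. Which of these 2 genes had or lacked a peak in a list is therefore uncertain. Hspb1 had a peak in the early 2-cell A-485 list alone, with a fold enrichment of 6.91.

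**Figure D5:**
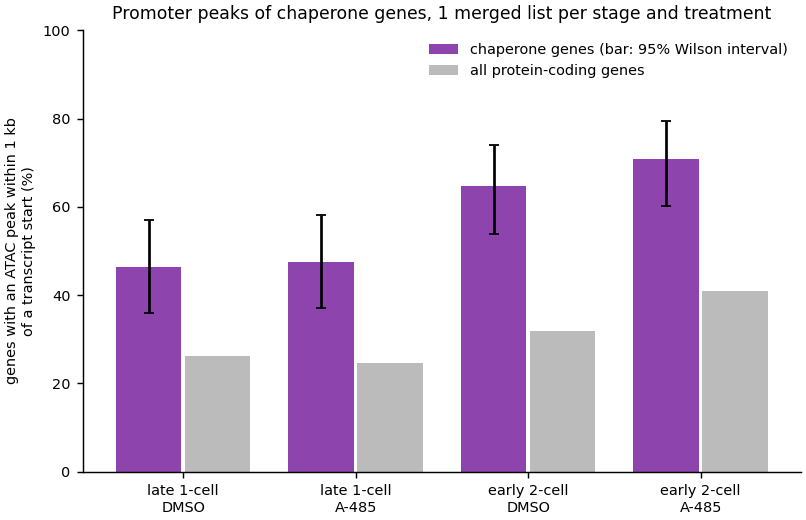
Percent of genes with an ATAC-seq peak within 1 kb of a transcript start in the 4 peak lists, for the 82 chaperone genes and for all protein-coding genes, with error bars on the chaperone genes for the 95% Wilson interval. The chaperone genes lie at 46.3%, 47.6%, 64.6% and 70.7%, and all protein-coding genes between 24.7% and 41.0%.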

How the data were processed

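Total RNA libraries were made with the SMART-Seq Stranded kit. The authors trimmed the reads (Trimmomatic 0.39), mapped them to GRCm38 (STAR 2.7.8a) and deposited, from RSEM 1.3.1, the expected count of each gene, which is not normalized and divides reads shared by near-identical genes, and its FPKM. For ATAC-seq the authors deposited 1 peak list per condition over both replicates, with the fold enrichment of each peak as a ratio. H3K27ac samples were not used here.

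After rounding, the counts entered edgeR 4.0.16 in R 4.3.3, with TMM scaling, its quasi-likelihood test, and Benjamini-Hochberg adjustment over every gene whose counts in the compared libraries added up to 10 or more. SE is the log2 fold change divided by the square root of F. CPM (counts scaled to a fixed library size) used TMM factors over the 16 libraries. An interaction was called with a difference of at least 1 on the log2 scale, an adjusted p under 0.05 and 1 FPKM or more on average in any of the 4 groups. On simulated counts of the early 2-cell A-485 comparison, 78 of 100 genes changed 2-fold and 100 of 100 changed 4-fold had an adjusted p under 0.05 (edgeR). The fold and FPKM cutoffs of a call were not applied there. The simulation changed only genes with ample counts and gave all genes the same spread between libraries, so it does not measure how often a real change was called. Libraries of the same group differed beyond counting error (chi-square per degree of freedom 9.44 to 19.6).

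Values are given for the genes of 5 role lists (HSF1-type, constitutive cytosolic, endoplasmic reticulum, mitochondrial, CCT) and, in each comparison, for up to 4 called genes per direction with the largest change among those at a mean FPKM of 5 or more whose groups did not overlap, and for up to 3 called genes of each partner list. The genes and lists were chosen with earlier results of these data known. Alternatives were DESeq2 1.42.0, other scalings and filters, a replicate block and leaving out each library. Symbols and positions came from GENCODE M21 by gene identifier. Promoter sequences came from RefSeq. Values of some genes on the partner and marker lists are not reported here.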

Additional observations from a re-analysis of the deposited data

Results flagged for a closer look

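For the genes below the effect of a drug differed between stages or between drugs by an interaction test of edgeR (adjusted p under 0.05 and a difference of at least 1 on the log2 scale). Each value is a difference of log2 fold changes.

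The A-485 effect was lower at early 2-cell than in zygotes for Hspa1b (-4.30), Hspa2 (-3.32), Dnajb9 (-1.91), Hspa8 (-1.82) and Hsph1 (-1.05).

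The A-485 effect was lower at late than at early 2-cell for Dnajc17 (-3.48), Dnajb12 (-3.26), Hsp90ab1 (-2.82), Dnajb11 (-2.55), Cct3 (-2.19), Cct8 (-2.03), Dnajc15 (-1.84), Cct7 (-1.63), Dnajc7 (-1.47), Hsp90aa1 (-1.46), Hspa9 (-1.29), Cct2 (-1.26) and Dnajc1 (-1.11). It was higher at late 2-cell for Hspb8 (8.94), Hspa2 (4.10), Dnajc28 (2.26), Hspa1b (2.1) and Hspa1a (1.52). Hspb8 had at most 36 counts in any early 2-cell library.

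The effect of TSA was higher than that of A-485 at late 2-cell for Hspbp1 (3.83), Hspa1a (3.40), Hspa1b (3.27), Dnajc17 (2.63), Dnajb11 (2.28), Cct8 (2.05), Hsp90ab1 (1.29), Cct5 (1.21), Cct7 (1.14) and Hsp90b1 (1.08). It was lower for Dnajc12 (-2.28), Dnajc28 (-1.71) and Hspa4 (-1.19).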

How the results depend on the processing

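Of 1634 values for 139 named genes and comparisons under the alternatives, 1570 kept their direction and their side of the threshold, 64 kept the direction only, and 0 reversed. All 139 were called in the main fit, and some were picked for their large change, so reversals were unlikely from the start. Genes that were not called do not enter this tally. With mitochondrial scaling, late 2-cell A-485 gave 3 up and 45 down, zygote to early 2-cell 52 down, the A-485 effect at early 2-cell against zygote 10 lower, at late against early 2-cell 4 higher and 39 lower, and TSA against A-485 34 higher and 0 lower. With total counts, TSA gave 15 down. Beyond the shifts given above, mitochondrial scaling moved the median over expressed genes by 0.27 (A-485 in zygotes), -0.18 (TSA), -0.33 (A-485 effect, early 2-cell against zygote), -1.04 (late against early 2-cell) and 0.68 (TSA against A-485), and total counts by 0.19 (A-485 at late 2-cell) and 0.13 (its effect at late against early 2-cell). Leaving out each library in turn gave 1 to 5 lower effects of TSA against A-485, 23 to 30 genes down with A-485 at late 2-cell and 7 to 9 at early 2-cell. With only peaks of above-median fold enrichment, a promoter peak was left for 22 genes in both late 1-cell lists, and for 30 (DMSO) and 31 (A-485) at early 2-cell. Replicate numbers did not pair the samples (correlations of deviations from -0.044 to 0.077 over 11105 genes), and a replicate block gave 10 genes down with A-485 at early 2-cell, 9 up and 29 down at late 2-cell, and 11 up and 24 down with TSA. With 2 libraries a group, precision was limited by replication rather than by depth.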
